A study of Homo sapiens with 4 samples.

Results

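The heat shock proteins and chaperones were taken as 88 of the 19951 protein-coding genes of the human annotation. They were chosen by symbol alone, as the genes whose symbol begins with HSPA, HSPB, HSP90, DNAJ or HSF followed by a digit or letter, together with HSPD1, HSPE1 and HSPH1. RNA of 4 groups was sequenced, with 1 library in each. Group A was HepG2 cells and group C was Huh7 cells, both called hepatocellular carcinoma lines in the paper, with no treatment named in their labels. Group B (HepG2) and group D (Huh7) had received sonodynamic therapy (SDT), in which ultrasound activates a sensitizer, with targeted nanobubbles. Per the paper, these carried hematoporphyrin monomethyl ether (HMME) and lonidamine (LND), of which the labels name only LND. The control groups had neither ultrasound nor nanobubbles in their labels, so the ultrasound, the nanobubbles and their cargo cannot be told apart in B vs. A or in D vs. C.

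The tables used here name, for each Gene Ontology (GO) term and each KEGG pathway, the differentially expressed mRNAs that belong to it. A gene found under any GO term of a comparison is called listed in that comparison. The tables hold no expression level, no direction and no depth of any library, so listed means only that the authors' threshold was passed, up or down. A gene that was not listed may have been unexpressed, unaltered or without a GO term, and these cannot be told apart. With 1 library a group there was no replicate error, and no test was made. Of 8 hepatocyte genes, 3 (37.5%) were listed in B vs. A and 6 (75%) in D vs. C, beside 23.9% and 21.9% of all protein-coding genes. ALB, AFP and HNF4A were listed in both cell lines, APOA1, APOB and TTR in Huh7 cells alone, and SERPINA1 and TF in neither. The liver origin of the cells could not be checked further, since a listed marker has no level in these tables.

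Molecular chaperones bind unfolded proteins and keep them from aggregating. HSP70 proteins do this in cycles of ATP binding and hydrolysis, which J-domain proteins (the DNAJ genes, also called HSP40) start and nucleotide exchange factors end. HSP90 proteins act later on signaling proteins, and small HSPs hold unfolded proteins without ATP. When unfolded proteins accumulate in the cytosol, heat shock factors (HSF) bind heat shock elements in promoters, and when they accumulate in the endoplasmic reticulum (ER), the unfolded protein response acts on its own set of promoters.

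In B vs. A, 22 of the 88 genes (25%) were listed, beside 23.9% of all protein-coding genes. In D vs. C, 19 (21.6%) were listed, beside 21.9% of all protein-coding genes. As a whole, the chaperone genes were thus listed at about the share of all genes in each cell line. In both cell lines, 14 of the 88 (15.9%) were listed, beside 11.4% of all protein-coding genes. These 14 were 63.6% of the chaperone genes listed in B vs. A and 73.7% of those listed in D vs. C, whereas the genes listed in both were 47.7% and 52.2% of the 2 whole lists. A further 8 were listed in B vs. A alone, 5 in D vs. C alone and 61 in neither, and whether a gene differed between the cell lines was not tested.

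**Figure D1:**
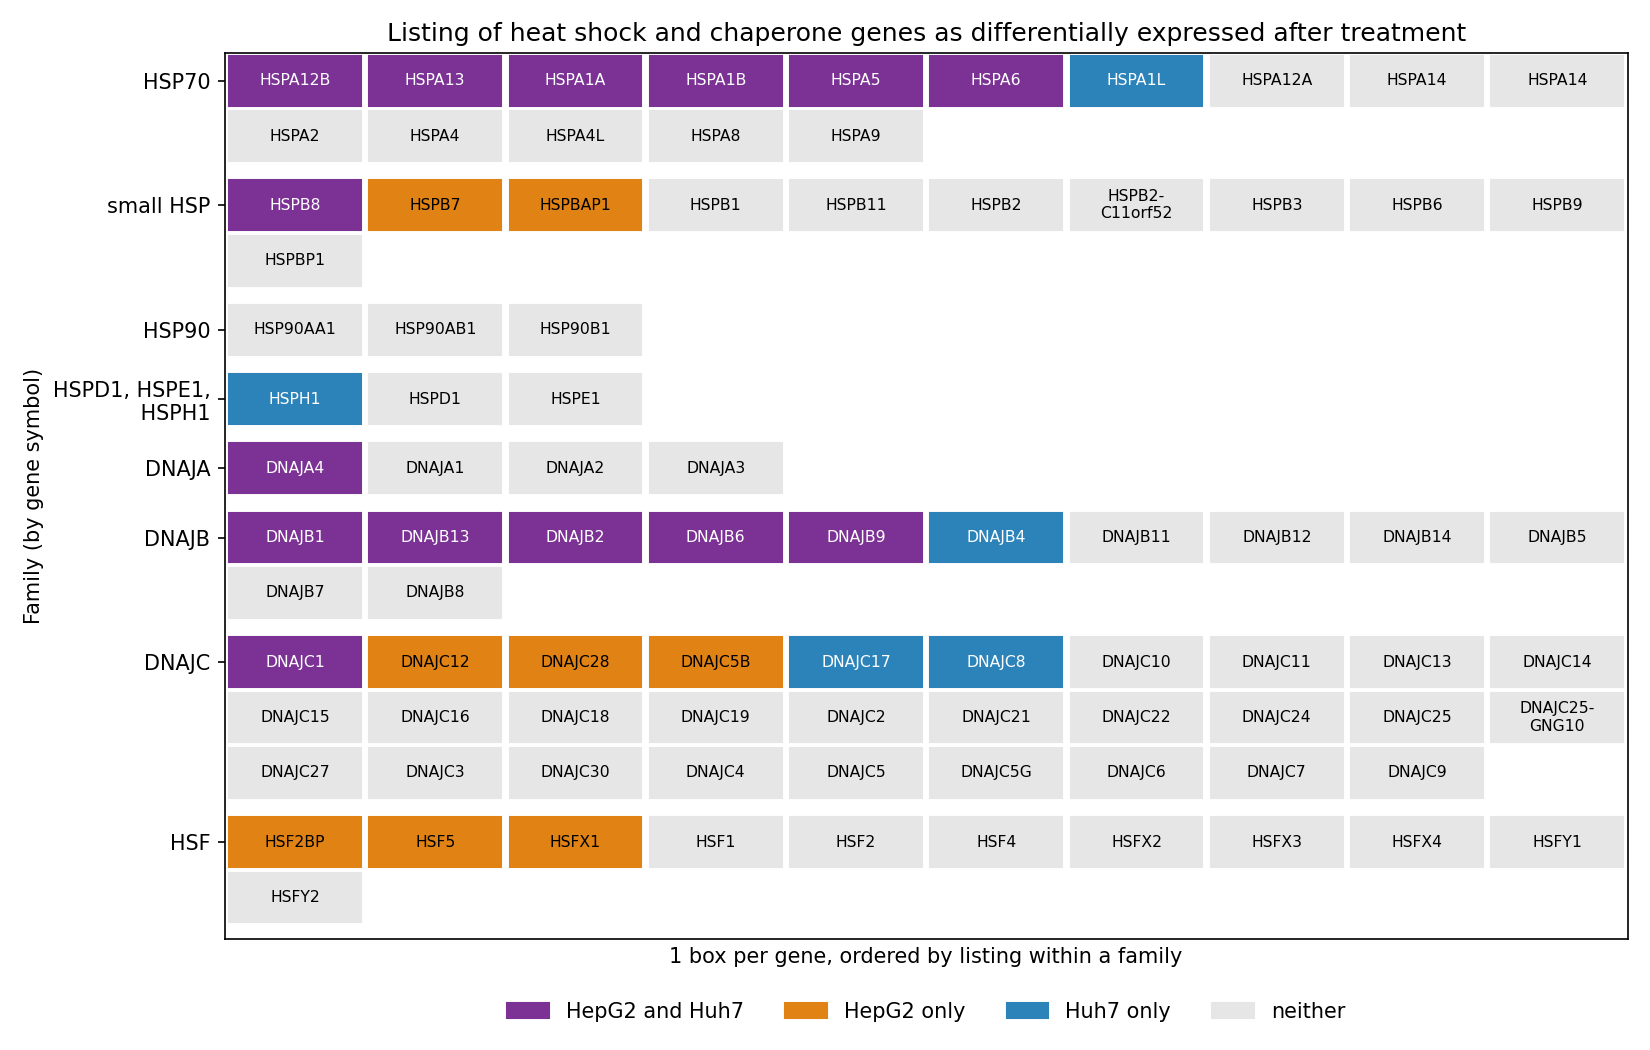
Each box is 1 of the 88 heat shock protein and chaperone genes, in rows by family, and its color gives its listing: in HepG2 and Huh7 (purple), HepG2 only (orange), Huh7 only (blue) or neither (gray). The 14 purple boxes are mostly in the HSP70 and DNAJB rows, the 61 gray boxes include all of HSP90, and the colors carry no direction.

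The percent of listed genes ran from 0 to 50% over the families. In the HSP70 family 6 of 15 genes (40%) were listed in B vs. A and 7 (46.7%) in D vs. C, and among DNAJB genes 5 of 12 (41.7%) and 6 (50%). In the DNAJC class, the largest, 4 of 29 (13.8%) and 3 (10.3%) were listed, below the share of all genes. The 3 HSP90 genes were listed in neither cell line. The families are small, and no difference between them was tested.

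**Figure D2:**
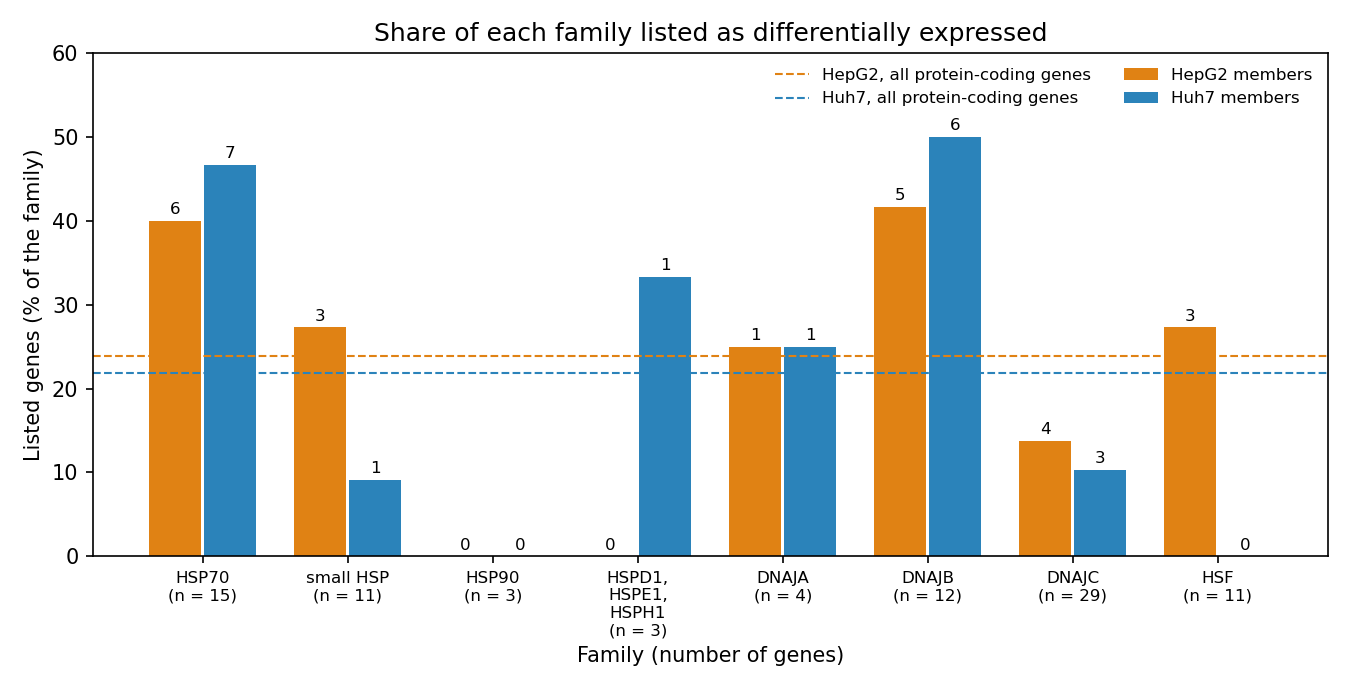
Percent of the genes of each family that were listed in B vs. A (orange bars) and in D vs. C (blue bars), with the number listed above each bar and the percent of all protein-coding genes as dashed lines. The bars start at 0; those of the HSP70 and DNAJB families are the highest, at 40% to 50%, and the HSP90 bars are at 0.

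In the HSP70 family, HSPA1A (ENSG00000204389), HSPA1B (ENSG00000204388) and HSPA6 (ENSG00000173110) were listed in both cell lines. These are the cytosolic HSP70 genes that are known to be strongly inducible by heat and other stress. HSPA5 (ENSG00000044574), the HSP70 of the ER known as BiP, HSPA13 (ENSG00000155304), a microsomal HSP70-like ATPase, and HSPA12B (ENSG00000132622), a distant member of the family, were also listed in both. HSPA1L (ENSG00000204390), a close relative of HSPA1A known from testis, was listed in Huh7 cells and not in HepG2 cells. HSPA8, the constitutive cytosolic HSP70, HSPA9 of the mitochondria and HSPA2, which is known from sperm development, were in neither list. HSPA4 and HSPA4L, HSP110-type exchange factors, HSPA12A and HSPA14 were in neither list too. HSPA14 is carried by 2 Ensembl genes of the annotation, of which the second is named MSANTD7 in another symbol table.

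HSPA1L, HSPA1A and HSPA1B lie side by side on chromosome 6. HSPA1L and HSPA1A lie on opposite strands with 398 bases and no gene between them, and 9788 bases separate HSPA1A from HSPA1B. All 3 of HSPA1A, HSPA1B and HSPA6 have a single exon. Of the stretches of 75 bases in the transcripts of HSPA1A, 30.7% occurred in no other gene, and 69.3% also occurred in HSPA1B. For HSPA1B the unique share was 26.8%. HSPA6 was unique over 65% and shared 35% with its pseudogene HSPA7. A read that lies wholly within shared sequence cannot be told apart from a read of the other gene. The listing of HSPA1A and of HSPA1B is thus uncertain as to which gene it came from. Only stretches of 75 bases were compared, and the length and pairing of the reads were not considered. For HSPA5 the unique share was 95.9%.

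**Figure D3:**
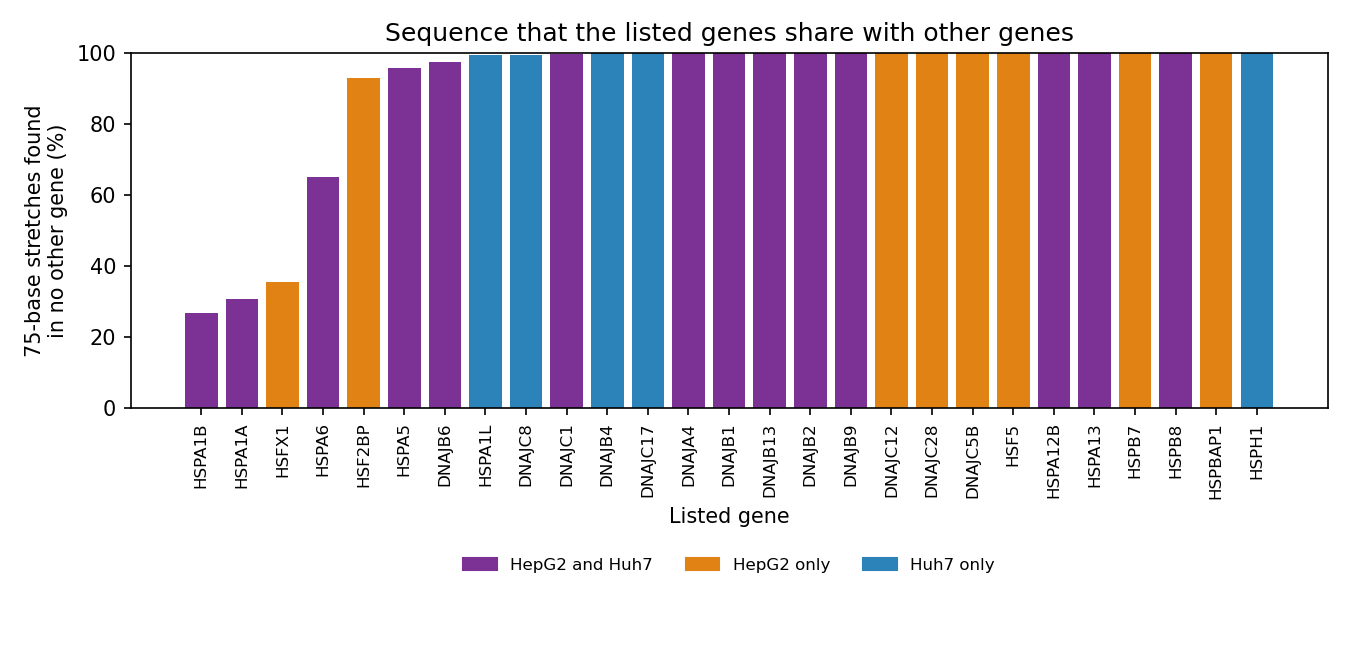
Percent of the stretches of 75 bases in each listed gene's transcripts that occur in no other gene, on an axis from 0 to 100, as 1 bar for each gene colored by listing (purple both cell lines, orange HepG2 only, blue Huh7 only). HSPA1B (26.8%), HSPA1A (30.7%) and HSFX1 (35.4%) lie lowest, HSPA6 is at 65%, and the other listed genes are at 93% or higher.

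The promoters of the stress-inducible HSP70 genes are shown here because heat shock elements are the known sites of HSF in them, with HSPA8 as an HSP70 gene in neither list. Each is the 250 bases before the RefSeq start of the gene (GRCh38.p14), written 5′ to 3′ on the strand of the gene. They are HSPA1A (chr6:31815293-31815542, plus strand), HSPA1B (chr6:31827488-31827737, plus strand), HSPA6 (chr1:161524290-161524539, plus strand) and HSPA8 (chr11:123062137-123062386, minus strand). Capitals mark matches to a heat shock element of 3 alternating units (GAA, any 2 bases, TTC, any 2 bases, GAA), on either strand and with at most 1 letter changed. Overlapping matches form 1 run of capitals.
HSPA1A: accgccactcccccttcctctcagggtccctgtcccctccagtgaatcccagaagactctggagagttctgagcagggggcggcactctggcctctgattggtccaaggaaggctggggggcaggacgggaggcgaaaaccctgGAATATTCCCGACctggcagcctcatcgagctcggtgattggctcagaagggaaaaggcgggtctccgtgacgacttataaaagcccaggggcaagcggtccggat
HSPA1B: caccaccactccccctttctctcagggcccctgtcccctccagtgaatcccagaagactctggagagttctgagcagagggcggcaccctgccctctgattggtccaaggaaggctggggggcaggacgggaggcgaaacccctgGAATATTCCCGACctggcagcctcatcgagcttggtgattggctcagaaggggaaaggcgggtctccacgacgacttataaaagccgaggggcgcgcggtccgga
HSPA6: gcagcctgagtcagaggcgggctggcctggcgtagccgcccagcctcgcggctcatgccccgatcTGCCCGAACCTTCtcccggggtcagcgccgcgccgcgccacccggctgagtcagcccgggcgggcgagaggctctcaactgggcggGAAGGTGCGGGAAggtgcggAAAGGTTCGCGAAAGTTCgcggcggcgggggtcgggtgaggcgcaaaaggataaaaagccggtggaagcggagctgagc
HSPA8: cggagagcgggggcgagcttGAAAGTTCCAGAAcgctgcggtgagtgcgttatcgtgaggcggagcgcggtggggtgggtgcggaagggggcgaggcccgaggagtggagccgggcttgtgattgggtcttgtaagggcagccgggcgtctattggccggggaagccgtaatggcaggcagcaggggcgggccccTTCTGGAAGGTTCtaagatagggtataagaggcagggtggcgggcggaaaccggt

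The 3 listed genes each held such a match, whose first base lay 106 bases before the start in HSPA1A and 105 in HSPA1B. HSPA6 held an exact match at 74 bases and HSPA8 held exact matches at 55 and 230 bases, so an exact element was present in a listed and in an unlisted gene. The promoters of HSPA1A and HSPA1B were identical at 235 of 249 bases (94.4%) at a shift of 1 base, so their matches are not independent. Over windows from 250 bases before to 50 bases after the start, an exact match was found in 172 of the 35116 promoters of the table (0.49%), and a match with at most 1 letter changed in 2190 (6.24%). Among the 15377 promoters of protein-coding genes these were 56 (0.364%) and 741 (4.82%). A promoter was found for 77 of the 88 genes, and not for DNAJC1, DNAJC5B, DNAJC22, DNAJC24, HSF1, HSF2BP, HSPA12B, HSPB2, HSPB2-C11orf52 and both genes named HSPA14. Of the 77, 4 (5.19%) held an exact match, namely HSPA6 and DNAJB6, listed in both cell lines, and HSPA8 and DNAJA1, listed in neither. The exact match of DNAJA1 lay after the start. With at most 1 letter changed, a match searched after the exact one had been counted, it was 12 of 77 (15.6%). These were 4 of 12 genes listed in both (33.3%), 1 of 11 listed in 1 cell line (HSPA1L) and 7 of 54 in neither (13%). Of the 4, HSPA1A and HSPA1B held no exact match. The exact match was held by 2 of 12 genes listed in both, 0 of 11 listed in 1 cell line and 2 of 54 in neither. The 7 genes in neither list with at most 1 letter changed were DNAJA1, DNAJB7, DNAJC15, HSPA8, HSPA9, HSPB1 and HSPB6. The match of HSPA9 spanned the start. A match describes letters in a window and not a bound site.

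**Figure D4:**
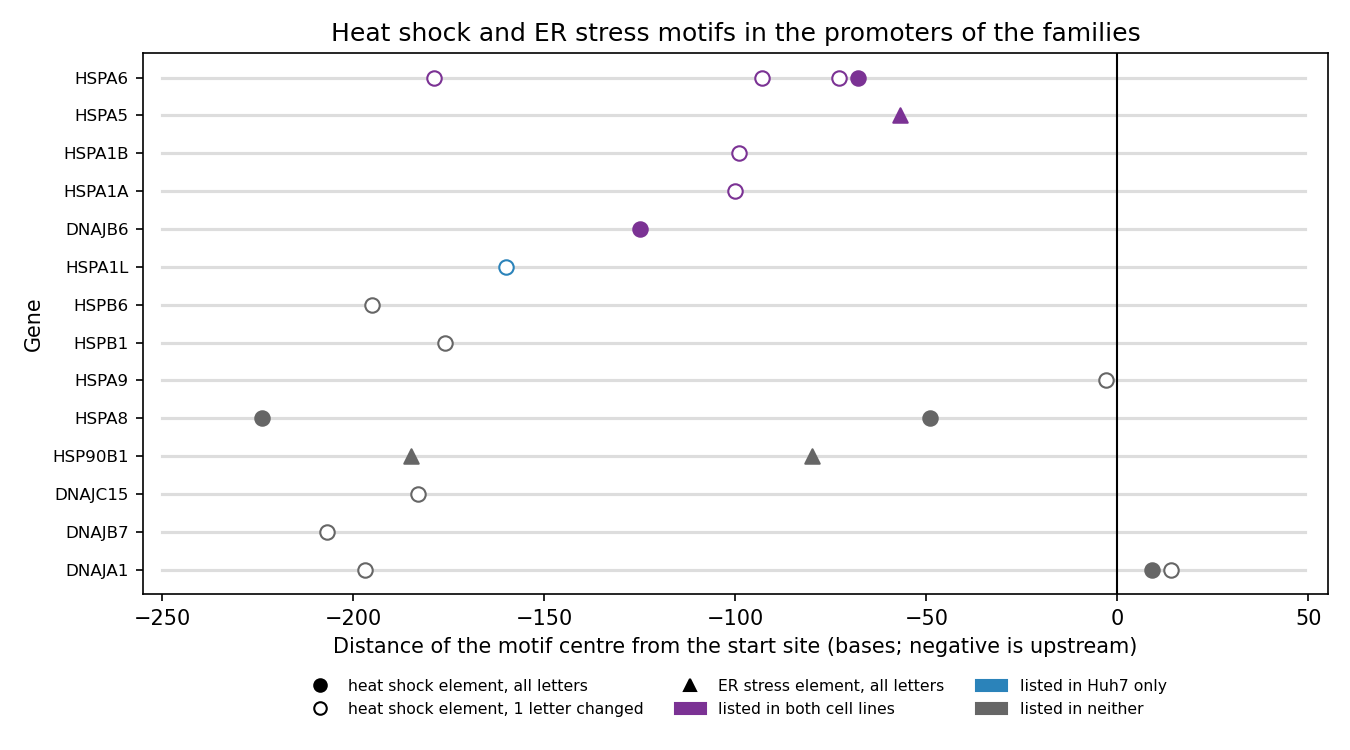
Distance of the center of each motif match from the gene start, in bases with negative values upstream, for the chaperone genes that hold a match, 1 row for each gene. Filled circles are exact heat shock elements, open circles those with 1 letter changed and triangles exact ER stress elements; purple marks genes listed in both cell lines, blue in Huh7 only and gray in neither, and exact matches stand in purple and in gray rows.

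HSPA5, HSPA13, DNAJB9 (also known as ERdj4, a J-domain protein that binds BiP) and DNAJC1 (a J-domain protein of the ER membrane) were listed in both cell lines. HSP90B1 (GRP94, the HSP90 of the ER), DNAJB11, DNAJC3 and DNAJC10, which are also ER proteins, were in neither list. The promoters of HSPA5 (chr9:125241344-125241593, minus strand) and HSP90B1 (chr12:103930160-103930409, plus strand) are shown because both hold the ER stress element, to which factors of the unfolded protein response bind, while their listing differed. Capitals mark exact matches to CCAAT, any 9 bases and CCACG, on either strand.
HSPA5: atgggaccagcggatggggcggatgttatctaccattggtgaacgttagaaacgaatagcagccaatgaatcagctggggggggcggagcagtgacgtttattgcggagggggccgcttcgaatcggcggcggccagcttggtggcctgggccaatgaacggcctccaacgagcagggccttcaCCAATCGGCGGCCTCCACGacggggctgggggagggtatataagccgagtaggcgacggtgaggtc
HSP90B1: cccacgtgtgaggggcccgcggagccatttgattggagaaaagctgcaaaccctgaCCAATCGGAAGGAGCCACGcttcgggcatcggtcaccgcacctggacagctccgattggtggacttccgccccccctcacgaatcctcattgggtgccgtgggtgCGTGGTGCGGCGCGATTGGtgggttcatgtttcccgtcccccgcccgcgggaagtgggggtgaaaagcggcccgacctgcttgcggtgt

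HSPA5 held 1 exact match, at 66 bases before its start, and HSP90B1 held exact matches at 194 and 89 bases. No changed letter was allowed for this element, so near matches in either promoter were not counted. The element was found in 27 of the 35116 promoters (0.0769%), in 19 of the 15377 of protein-coding genes (0.124%), and in no other of the 77 chaperone promoters. The ER stress element and the match with 1 letter changed were searched after the exact heat shock element had been counted, and the promoters other than that of HSPA6 were chosen for print then.

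The KEGG pathway Protein processing in endoplasmic reticulum held 35 listed genes of 168 (20.8%) in B vs. A, of which 8 were chaperone genes of this set, and 29 (17.3%) in D vs. C, of which 9 were. Summed over all pathways of the KEGG tables, in which a gene recurs in every pathway that holds it, 26.3% of the background was listed in B vs. A and 25.8% in D vs. C, so this pathway lay below that share in both. Of the other genes and assembled loci of this pathway, 27 were listed in B vs. A, 20 in D vs. C and 15 in both. Of all listed protein-coding genes, 47.7% of those in B vs. A and 52.2% of those in D vs. C were listed in both. Among them were ERN1, the IRE1 sensor of unfolded proteins, the transcription factors ATF4 and DDIT3 (CHOP), PPP1R15A (GADD34), which restores translation, and HERPUD1, SYVN1, DERL3 and SELENOS of ER-associated degradation. The rest listed in both were ERO1B, MAN1C1, SAR1A, SEC31B, SEC61A1, UBE2E3 and an assembled locus. The sensor EIF2AK3 (PERK) and the transcription factor XBP1 were among 12 listed in B vs. A alone. HYOU1, the HSP110-type partner of BiP, and the disulfide isomerase P4HB were among 5 listed in D vs. C alone. These genes were named after their listing was seen. Of 14 genes linked to ER folding, 3 (21.4%) were listed in B vs. A and 2 (14.3%) in D vs. C, below the 23.9% and 21.9% of all protein-coding genes. These were ERO1B in both, MANF and SERPINH1 in B vs. A, and P4HB in D vs. C.

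Among J-domain genes, 10 of 45 (22.2%) were listed in each cell line, beside 23.9% and 21.9% of all protein-coding genes, which is near the share of all genes. Of them 7 were the same genes, 70% of each list, beside the 47.7% and 52.2% of the whole lists that were shared. DNAJB1 (ENSG00000132002), the main stress-inducible partner of cytosolic HSP70, was listed in both. DNAJB2 and DNAJB6, which are known to suppress protein aggregation, and DNAJB13, known from sperm flagella and cilia, were also listed in both, as was DNAJA4. DNAJB4, a close relative of DNAJB1, was listed in Huh7 cells alone. DNAJA1, DNAJA2 and DNAJA3, and DNAJB5, DNAJB7, DNAJB8, DNAJB11, DNAJB12 and DNAJB14 were in neither list. In the DNAJC class only DNAJC1 was listed in both. DNAJC12, a co-chaperone of the aromatic amino acid hydroxylases, DNAJC28 and DNAJC5B, a cysteine string protein, were listed in B vs. A, and DNAJC8 and DNAJC17, both linked to splicing, in D vs. C. The remaining 23 of the 29 DNAJC genes were in neither list.

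Among the 11 genes with HSPB symbols, HSPB8 (ENSG00000152137) was listed in both cell lines. HSPB8 acts with BAG3 in the removal of misfolded proteins by autophagy, and BAG3 was listed in both as well. HSPB7, a small HSP known from heart, and HSPBAP1, which binds HSPB1 and is not itself a small HSP, were listed in HepG2 cells. HSPB1 (HSP27), HSPB2, HSPB3, HSPB6, HSPB9, HSPB11, the read-through gene HSPB2-C11orf52 and the HSP70 exchange factor HSPBP1 were in neither list. In all, 3 of the 11 (27.3%) were listed in B vs. A, beside 23.9% of all protein-coding genes, and 1 (9.09%) in D vs. C, beside 21.9%.

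HSP90AA1 and HSP90AB1, the inducible and constitutive HSP90 of the cytosol, were in neither list. The HSP70 and HSP90 co-chaperones were listed at 2 of 26 (7.69%) in each cell line, below the percent of all genes. BAG3 was in both, UNC45B in B vs. A and PPP5C in D vs. C. HSPH1 (ENSG00000120694), the HSP110 exchange factor of the cytosol, was listed in D vs. C and not in B vs. A. Of the other exchange factors GRPEL2 was listed in B vs. A and HYOU1 in D vs. C. HSPD1 and HSPE1, the mitochondrial HSP60 and HSP10, were in neither list. They lie head to head and overlap on chromosome 2. None of the 9 subunits of the cytosolic chaperonin TRiC was listed in either cell line. Of 6 prefoldin subunits 1 (16.7%), PFDN2, was listed in both. Both sets lay below the 23.9% (B vs. A) and 21.9% (D vs. C) of all protein-coding genes.

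HSF1, the main activator of the heat shock response, HSF2, HSF4, HSFX2, HSFX3, HSFX4, HSFY1 and HSFY2 were in neither list. In B vs. A 3 of the 11 HSF symbols (27.3%) were listed, near the 23.9% of all protein-coding genes, and in D vs. C 0, beside 21.9%. The 3 were HSF5, known from spermatogenesis, HSF2BP, which is no heat shock factor but binds HSF2 and acts in meiosis, and HSFX1, which shared 64.6% of its 75-base stretches with HSFX2. A listing concerns the amount of mRNA, and says nothing of whether the HSF1 protein was active.

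Among the GO terms of folding and stress, the term response to heat held 36 listed genes of 170 (21.2%) in B vs. A, of which 11 were chaperone genes of this set, and 34 (20%) in D vs. C, of which 12 were. Over all genes with a GO term, 21.6% were listed in B vs. A and 19.7% in D vs. C. Response to unfolded protein held 37 of 125 (29.6%) and 32 (25.6%). Endoplasmic reticulum unfolded protein response held 23 of 54 (42.6%) and 18 (33.3%), the highest percent of the 20 terms in each cell line, and HSPA5 and HSPA13 were the only chaperone genes of this set among them. Protein folding held 32 of 230 (13.9%) and 29 (12.6%), and unfolded protein binding 17 of 146 (11.6%) and 16 (11%), the lowest percents. Hsp70 protein binding held 12 of 40 (30%) and 13 (32.5%), and chaperone binding 31 of 109 (28.4%) and 29 (26.6%). Hsp90 protein binding held 8 of 43 (18.6%) in each, with none of the 88 genes. Of the 20 terms, 9 lay above the percent of the whole list in B vs. A and 14 in D vs. C. The terms share genes and are not independent.

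**Figure D5:**
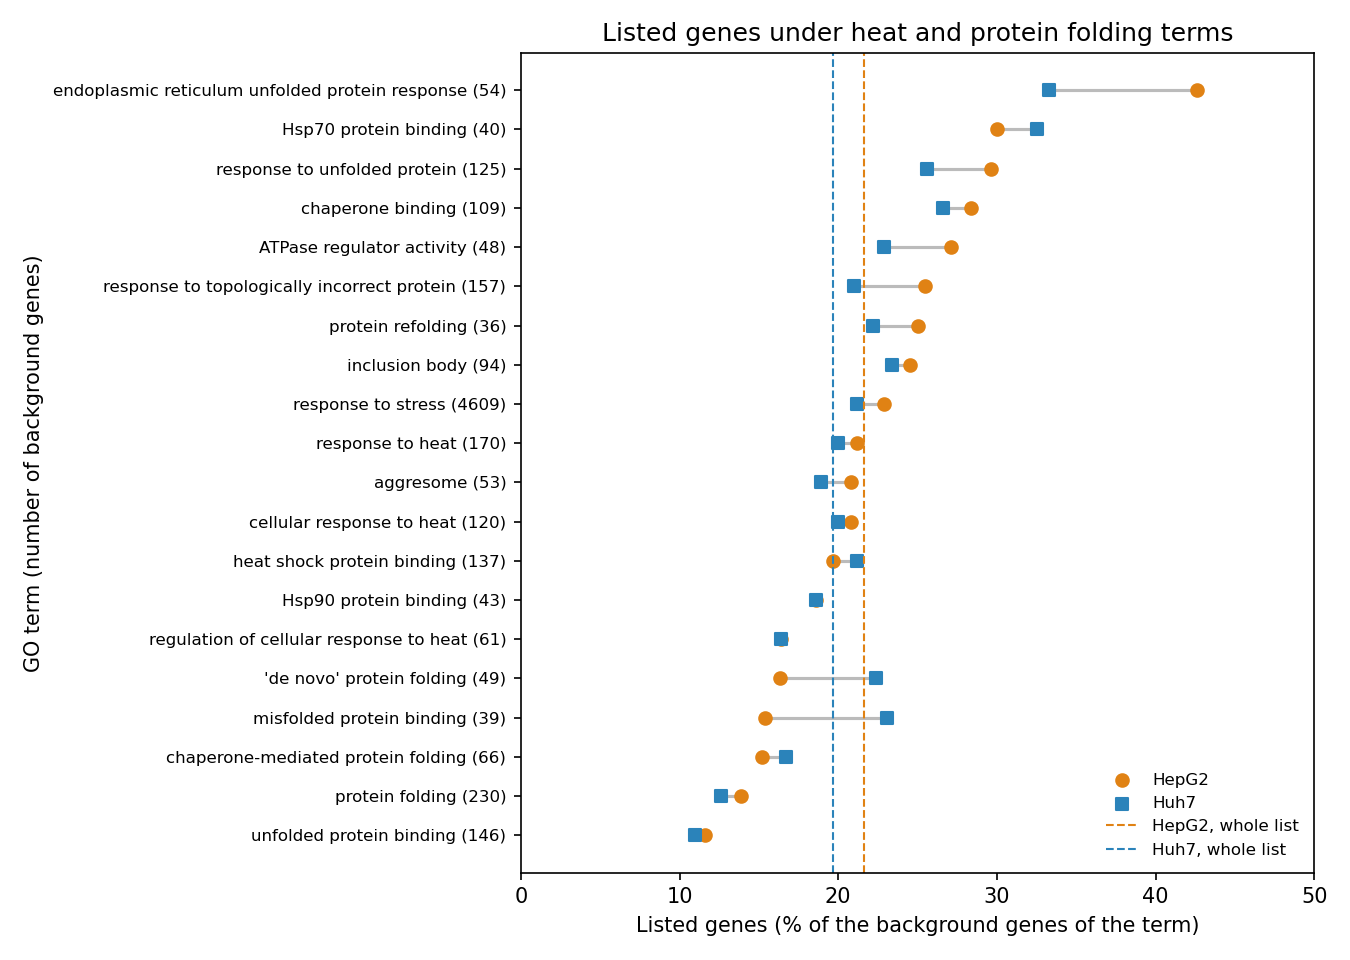
Percent of the background genes that were listed for each of the 20 GO terms on folding and stress, as orange circles for B vs. A and blue squares for D vs. C, with the percent of the whole list as dashed lines. Endoplasmic reticulum unfolded protein response is highest in both (42.6% and 33.3%) and unfolded protein binding lowest (11.6% and 11%).

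Next, 2 small terms are given that were picked because chaperone genes of this set were most of their listed genes. That majority therefore follows from the choice. The listed genes were a minority of the background genes of each term. Over all genes with a GO term, 21.6% were listed in B vs. A and 19.7% in D vs. C. Chaperone mediated protein folding requiring cofactor had 39 background genes, of which 7 were listed in B vs. A and 10 in D vs. C, and all of these were of this set. The HepG2 genes were DNAJB1, DNAJB13, HSPA13, HSPA1A, HSPA1B, HSPA5 and HSPA6, and Huh7 cells had these with DNAJB4, HSPA1L and HSPH1. Negative regulation of inclusion body assembly held 7 listed genes of 18 in each cell line, of which 6 were DNAJA4, DNAJB1, DNAJB2, DNAJB6, HSPA1A and HSPA1B. The number of terms a listed chaperone gene belonged to ran from 5 for DNAJC5B to 557 for HSPA1A, with a median of 105, and was the same in both cell lines for the 14 genes listed in both. HSPA1A and HSPA1B (479 terms) therefore entered far more term counts than DNAJC12 or HSPBAP1 (9 terms each).

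By the KEGG tables alone, 8 of the 88 genes (9.09%) were listed in B vs. A, beside 8.46% of all protein-coding genes, 9 (10.2%) in D vs. C, beside 8.19%, and 7 (7.95%) in both, beside 4.31%. HSPA1A, HSPA1B and HSPA6 stood in the same 11 pathways in both cell lines, and HSPA1L stood in all 11 in Huh7 cells. Beside Protein processing in endoplasmic reticulum, these were pathways of infection, immunity, signaling, endocytosis and RNA splicing. The percents that follow are of the background genes of a pathway, and stand beside the 26.3% and 25.8% summed over all pathways. MAPK signaling held 81 listed genes of 257 (31.5%) in B vs. A and 77 (30%) in D vs. C, and Legionellosis 19 of 55 (34.5%) and 17 (30.9%). Antigen processing and presentation held 19 of 79 (24.1%) and 21 (26.6%), and HSPA5 was also among its listed genes. Endocytosis held 22.5% in B vs. A and 20.2% in D vs. C, Epstein-Barr virus infection 18.8% in each, and Estrogen signaling 27% and 32%. Influenza A held 24.3% and 27.1%, Measles 27.6% and 21.6%, and Toxoplasmosis 21.7% and 25.8%. Spliceosome held 15 of 130 (11.5%) and 16 (12.3%), and the named HSP70 genes were 3 of its 15 listed genes in B vs. A and 4 of its 16 in D vs. C. An assembled locus without an Ensembl identifier, XLOC_137218, was listed in all 11 pathways in both cell lines. What it encodes was not tested, so the HSP70 counts of these pathways are those of the named genes. The same few HSP70 genes thus recur in the counts of these pathways.

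The median transcript of the 27 chaperone genes listed in either cell line had 2521 bases and 6 exons. Whether transcript length bears on listing was not tested. The median transcript had 2524 bases and 6.5 exons for the 14 genes listed in both cell lines and 2643 bases and 7 exons for the 61 in neither. Over all protein-coding genes the medians were 3113 bases for the 2276 genes listed in both and 2802 for those in neither. Of the 14 genes, 3 had a single exon, namely HSPA1A, HSPA1B and HSPA6.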

How the data were processed

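After removal of ribosomal RNA, libraries were made from HepG2 and Huh7 cells without (A, C) and with (B, D) SDT, 1 for each of the 4 groups that the labels give. Per the paper, the authors computed FPKM values with Cuffdiff (2.1.1) and called mRNAs at an adjusted p-value under 0.05, while its results name edgeR. The submitters' processing notes also name HISAT2, Bowtie2 2.2.8 and StringTie 1.3.1; the role of each, the build and the gene models are not given in the sources used here. The authors tested GO terms with GOseq and KEGG pathways with KOBAS. The 4 deposited tables hold, for each term, the numbers of listed and background genes, the listed identifiers, and the authors' p-values, raw and corrected; the p-values were not used here. The tables hold no expression values, so the depth and the precision it gives are unknown.

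Genes were matched by Ensembl identifier to GENCODE 29 (GRCh38), in which all 4768 and 4360 listed Ensembl identifiers were found, and members were chosen by symbol. The whole lists held 4783 and 4369 identifiers, and those that were not Ensembl identifiers were not matched. Members, lists and terms were chosen with earlier results of these data known. By the rule for names, each listed member was named, and each unlisted one except in the DNAJC class. DNAJB11, DNAJC3, DNAJC10 and DNAJC15 were named after their listing was seen, as were the ER genes. Of 21 GO terms chosen, 20 were found; the term of the chaperonin-containing T-complex was in neither table. KEGG pathways were those with 2 or more listed members. Promoters came from RefSeq (GRCh38.p14), and uniqueness was counted over stretches of 75 bases. Protein sequences were not analysed here. No test was made with 1 library a group. Scripts ran in Python 3.11.15 and passed 11 of 11 checks on simulated data. Alternatives were other member lists, tables and symbol sources.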

Additional observations from a re-analysis of the deposited data

How the results depend on the processing

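Counting a gene as listed by the KEGG tables in place of the GO tables gave 8 members in B vs. A, 9 in D vs. C and 7 in both, beside 8.46%, 8.19% and 4.31% of all protein-coding genes. The KEGG tables hold only genes assigned to a pathway. The 6 other alternatives gave 19 to 23 members in B vs. A, 17 to 21 in D vs. C and 12 to 15 in both. The size of the member list differed between them. As percents of each member list these were 23.8% to 25.6%, 21.2% to 22.9% and 15% to 16.9%. By the GO tables, 23.9%, 21.9% and 11.4% of all protein-coding genes were listed. The alternative that left out members of whose 75-base stretches under 50% were unique was chosen after seeing the data. It gave 19, 17 and 12 of 77 genes (24.7%, 22.1% and 15.6%). No paired analysis was possible because the tables hold no values per sample, only lists of genes for a whole comparison. No library could be left out for the same reason. Depth, detection and direction are unknown, so a gene that is not listed is not shown to be unaltered.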

Other observations

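Of 9 mitochondrial chaperones and proteases outside the 88 genes, 1 (11.1%) was listed in each cell line. Of all protein-coding genes, 23.9% were listed in B vs. A, 21.9% in D vs. C and 11.4% in both. The 1 gene was LONP1, the matrix protease that degrades oxidized proteins, in both cell lines, and the other 8 were in neither list.

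The assembled locus XLOC_137218 stood in 12 KEGG pathways in each cell line. These were the 11 pathways of HSPA1A, in which it was counted as a gene of its own, and Prion diseases. Its sequence was not analysed here.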
